A study of Mus musculus with 12 samples.

Results

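A T cell receptor (TCR) beta chain is read through its complementarity-determining region 3 (CDR3), the loop that contacts the antigen peptide. The sequences described here are private convergent CDR3s: productive amino acid sequences that were found in only 1 of 6 mice and that were coded in this mouse by at least 2 different nucleotide sequences, each with at least 2 unique molecular identifiers (UMIs, tags that mark single cDNA molecules) over both organs. Of 80300 productive CDR3 amino acid sequences in the series, 12691 were private with a coding sequence of at least 2 UMIs. Of these, 161 were convergent, which is 1.27%, and 12530 were coded by 1 such sequence and served for comparison. Members were chosen by the number of their coding sequences, the UMI counts of these and their restriction to 1 mouse. These values are therefore given without a p-value, except that the share of members was compared between genotypes, which the choice did not use.

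The series asked whether the kinase subunit AMPKα1 shapes the clonal make-up of CD4+ T cells that expand in transfer colitis. All mice were Rag2-/- recipients, which make no mature T or B cells of their own. All received naive CD4+ T cells of C57BL/6 background 6 weeks before analysis. Donors of WT cells carried the floxed Prkaa1 gene (PRKAA1fl/fl) and no Cre, and donors of KO cells carried the same floxed gene with CD4-Cre, whose promoter limits the deletion to T lineage cells. The labels number the recipients of WT cells 1, 3 and 4 and those of KO cells 1, 2 and 3, and each contributed cells of the spleen and of the mesenteric lymph node (mLN), so that there were 12 libraries. That equal genotype and number mean the same mouse was assumed. The tables hold TCR sequences only, so the deletion and the cell type could not be checked in them.

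A beta chain gene is assembled in the thymus by joining a V, a D and a J segment. Exonucleases trim the segment ends and terminal transferase adds bases without a template, so the middle of the CDR3 is the most variable stretch. Because most amino acids have several codons, separate joining events in different cells can give the same CDR3 from different DNA, which is called convergent recombination. The same amino acid sequence with a base changed can also arise when a cDNA is copied with an error, and the tables do not record which of these gave a sequence.

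Coding sequences of 10 members are printed here, since they show the kinds of pair described below. They were taken from those with the most sequences, with the best counted second sequence, or with the best counted second sequence at least 3 nucleotides from the leading one in a mouse. They are given 5′ to 3′, from the codon of the first CDR3 residue to that of the last, with the bases that differ between the sequences of a CDR3 in capitals. The first set holds pairs 1 nucleotide apart, which had the same V and J segments.
TRBV1 and TRBJ2-5 CDR3 of WT replicate 3, leading sequence: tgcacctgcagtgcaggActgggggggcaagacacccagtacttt
TRBV1 and TRBJ2-5 CDR3 of WT replicate 3, second sequence: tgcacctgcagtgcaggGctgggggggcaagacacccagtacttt
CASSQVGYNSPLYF, WT replicate 1, TRBV5 and TRBJ1-6, leading sequence: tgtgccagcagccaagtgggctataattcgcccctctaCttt
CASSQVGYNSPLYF, WT replicate 1, second sequence: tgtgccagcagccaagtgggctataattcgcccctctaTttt
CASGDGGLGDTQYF, KO replicate 3, TRBV13-2 and TRBJ2-5, leading sequence: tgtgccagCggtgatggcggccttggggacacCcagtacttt
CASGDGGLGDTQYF, KO replicate 3, second sequence: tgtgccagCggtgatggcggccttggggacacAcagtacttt
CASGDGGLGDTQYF, KO replicate 3, other sequence of equal count: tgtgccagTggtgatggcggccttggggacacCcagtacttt
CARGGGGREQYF, KO replicate 3, TRBV13-2 and TRBJ2-7, leading sequence: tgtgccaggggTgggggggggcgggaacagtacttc
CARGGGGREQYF, KO replicate 3, second sequence: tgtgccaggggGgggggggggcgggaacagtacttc

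The next set shows CDR3s whose sequences were assigned to different V segments and the same J segment.
Most distant pair, WT replicate 4, TRBV12-1 and TRBJ2-1, leading sequence: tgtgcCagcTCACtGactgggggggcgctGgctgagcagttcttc
Most distant pair, WT replicate 4, TRBV16 and TRBJ2-1, second sequence: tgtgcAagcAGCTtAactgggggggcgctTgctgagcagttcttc
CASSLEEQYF, KO replicate 3, TRBV12-2 and TRBJ2-7, leading sequence: tgtgccagcTCTCtCgaAgaacagtacttc
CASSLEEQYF, KO replicate 3, TRBV3 and TRBJ2-7, second sequence: tgtgccagcAGCTtAgaGgaacagtacttc
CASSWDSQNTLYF, KO replicate 2, TRBV16 and TRBJ2-4, leading sequence: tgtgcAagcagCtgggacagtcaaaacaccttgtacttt
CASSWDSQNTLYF, KO replicate 2, TRBV14 and TRBJ2-4, second sequence: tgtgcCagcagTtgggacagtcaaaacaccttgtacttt
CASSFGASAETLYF, WT replicate 4, TRBV14 and TRBJ2-3, leading sequence: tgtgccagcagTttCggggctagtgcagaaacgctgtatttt
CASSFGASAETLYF, WT replicate 4, TRBV4 and TRBJ2-3, second sequence: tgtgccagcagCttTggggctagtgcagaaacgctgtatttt
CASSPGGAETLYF, KO replicate 2, TRBV3 and TRBJ2-3, leading sequence: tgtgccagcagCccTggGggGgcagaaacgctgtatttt
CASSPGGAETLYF, KO replicate 2, TRBV26 and TRBJ2-3, second sequence: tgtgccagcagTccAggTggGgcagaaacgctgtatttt
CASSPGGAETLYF, KO replicate 2, TRBV15 and TRBJ2-3, rarest sequence: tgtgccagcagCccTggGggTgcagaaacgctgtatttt
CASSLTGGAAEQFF, WT replicate 3, TRBV13-1 and TRBJ2-1, leading sequence: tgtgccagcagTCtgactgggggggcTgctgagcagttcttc
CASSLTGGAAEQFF, WT replicate 3, TRBV4 and TRBJ2-1, second sequence: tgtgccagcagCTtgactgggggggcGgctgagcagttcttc
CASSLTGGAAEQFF, WT replicate 3, TRBV3 and TRBJ2-1, rarest sequence: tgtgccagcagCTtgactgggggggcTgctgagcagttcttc

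In RefSeq's annotation of the mouse genome (GRCm38.p6), these segments lie on the plus strand of chromosome 6. The V genes here run from TRBV1 (chr6:40891296-40891885) to TRBV26 (chr6:41227525-41227913). TRBV12-1 is at chr6:41113567-41114067 and TRBV16 at chr6:41151791-41152230. The J segments run from TRBJ1-1 (chr6:41533864-41533911) to TRBJ2-7 (chr6:41543810-41543856). A CDR3 starts in the coding exon of the V gene and ends in the J segment. Its middle, which can hold part of a D segment, is put together only in the rearranged gene.

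The leading sequence of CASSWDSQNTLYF was the largest of all members, with 1071 UMIs in mLN and 1051 in spleen of KO replicate 2. Its second sequence had 49 and 22 UMIs. Both organs held both sequences. The leading sequence of the TRBV1 and TRBJ2-5 CDR3 had 127 UMIs in mLN and 1482 in spleen of WT replicate 3, and its second sequence had 12 and 220. This second sequence, with 232 UMIs in all, was the best counted second sequence of any member. Only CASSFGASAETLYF in WT replicate 4 and the TRBV1 and TRBJ2-5 CDR3 had over 100 UMIs of each sequence. Of these, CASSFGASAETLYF was the more even pair. Its leading and second sequence had 119 and 97 UMIs in mLN and 149 and 75 in spleen. As a share of the spleen library, the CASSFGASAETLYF sequences were 0.0341% (95% Wilson interval 0.0291 to 0.0401) and 0.0172% (0.0137 to 0.0215), and the intervals did not overlap. As a share of the mLN library they were 0.120% (0.09998 to 0.143) and 0.0975% (0.0799 to 0.119), and the intervals overlapped. The leading sequence is the better counted one by definition, so these intervals are not a test. Intervals cover counting error only.

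The most distant pair, 7 nucleotides apart, was in WT replicate 4, with 33 mLN and 16 spleen UMIs of the TRBV12-1 sequence and 5 and 12 of the TRBV16 sequence. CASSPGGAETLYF had 90, 46 and 13 UMIs of its 3 sequences, each found in both organs. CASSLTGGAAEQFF had 273, 15 and 2 UMIs. In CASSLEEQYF, 195 UMIs of the leading sequence stood against 3 of the second, all in spleen. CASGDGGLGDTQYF had 57, 3 and 3 UMIs, all in spleen as well. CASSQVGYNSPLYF, the 1 member of WT replicate 1, had 7 UMIs and 2 UMIs. The member with the most sequences in WT replicate 4, a CDR3 of 48 bases under TRBV13-2 and TRBJ2-1, had 54, 2 and 2 UMIs of sequences 1 nucleotide from the leading one. In KO replicate 1, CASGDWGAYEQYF had 12 UMIs of the leading sequence, all in mLN, and 2 of the second, both in spleen, and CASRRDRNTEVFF had 8 and 3 UMIs under TRBV19 and TRBV3. The second sequences of members thus ranged from over 100 UMIs down to the count limit.

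The mice differed widely in the number of members. WT replicate 1 had 1 member, WT replicate 3 had 54 and WT replicate 4 had 58. KO replicate 1 had 4 members, KO replicate 2 had 24 and KO replicate 3 had 20. The convergent share of private CDR3s was 0.168% (95% Wilson interval 0.0296 to 0.944), 1.48% (1.14 to 1.93) and 1.43% (1.11 to 1.84) in the WT mice. It was 0.390% (0.152 to 0.999), 1.36% (0.916 to 2.02) and 1.25% (0.810 to 1.92) in the KO mice. The lowest shares were in WT replicate 1 and KO replicate 1, which also had the fewest UMIs (23258 and 88638), while the other mice had 223423 to 561823. These mice had 4 of the 5 libraries, KO replicate 3 mLN being the other, in which few clonotypes seen once (2.60% to 5.85%) ended in 9 bases unusual for their J segment, against 26.1% to 38.3% in the other 7 libraries. Depth and this library kind moved together with the number of members and cannot be told apart here.

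**Figure D1:**
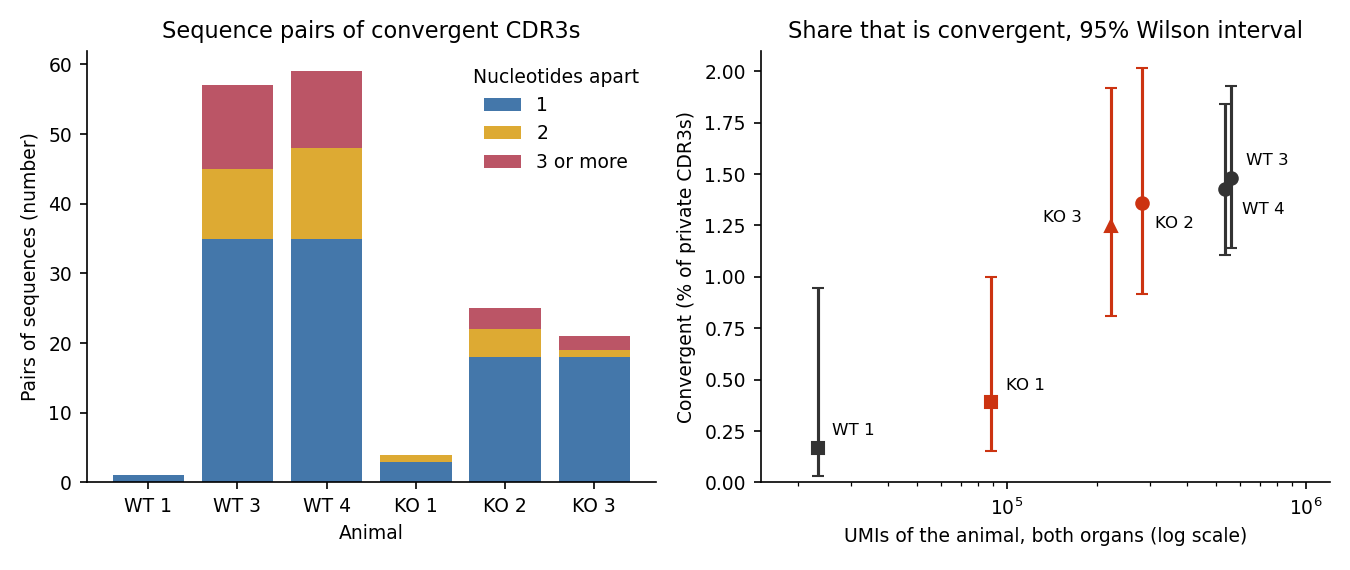
Left, number of pairs of a leading and a lesser sequence per mouse, stacked by the number of nucleotides between them. Right, convergent share of private CDR3s (%) against the UMIs of the mouse (log scale), with 95% Wilson intervals, WT in black and KO in red, squares for mice whose libraries held few unusual J ends, circles for many and a triangle for KO replicate 3, which had 1 library of each kind. The squares, WT replicate 1 and KO replicate 1, sit lowest at 0.168% and 0.390%.

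Most members sat near the count limit. Of the 161 members, 155 were coded by 2 sequences and 6 by 3, which gave 328 sequences and 167 pairs of a leading (most counted) and a lesser sequence. The second sequence had exactly 2 UMIs in 86 members, 3 UMIs in 28 and 10 or more in 13. Just outside the limit, 1109 private CDR3s had a further sequence of 1 UMI only, and 76 CDR3s met the count limit but were seen in 2 mice. The leading sequence was itself better counted in members, with a median of 32.5 UMIs in WT replicate 3, against 6 for CDR3s coded by 1 sequence, and of 54 against 9 in KO replicate 2. Among private CDR3s with a leading sequence of 2 to 9 UMIs, 0.380% were convergent (29 of 7636), against 2.70% (104 of 3847) at 10 to 99 UMIs and 2.32% (28 of 1208) at 100 or more. The leading sequence of a member is by definition the best counted of at least 2 sequences, so these differences follow in part from the rule.

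Pairs 1 nucleotide apart were the most common. Of the 167 pairs, 110 (65.9%) were 1 nucleotide apart, 29 were 2 apart and 28 were 3 to 7 apart. By mouse, the pairs 1 apart were 1 of 1, 35 of 57 and 35 of 59 in WT replicates 1, 3 and 4, and 3 of 4, 18 of 25 and 18 of 21 in KO replicates 1, 2 and 3. They were the larger part in every mouse. Among convergent CDR3s seen in 2 or more mice, taken by mouse at the same limit, 49 pairs (35.5%) were 1 apart, 43 were 2 apart and 46 were 3 or more apart. In the mice with over 10 pairs of both kinds, the shared pairs 1 apart were 26.7% in WT replicate 3, 33.9% in WT replicate 4 and 64.7% in KO replicate 3, each below the private 61.4%, 59.3% and 85.7%.

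All 167 pairs had the same J segment, whereas the V segment depended on the distance. The same V and J were assigned in 99 of 110 pairs 1 apart (90%), in 15 of 29 pairs 2 apart and in 3 of 28 pairs 3 or more apart (10.7%). In the 4 mice with pairs of both kinds, the share of pairs 1 apart with the same V and J was 91.4% and 88.6% in WT replicates 3 and 4 and 94.4% and 88.9% in KO replicates 2 and 3. For pairs 3 or more apart it was 8.33% of 12 pairs, 18.2% of 11, 0% of 3 and 0% of 2. The difference of 84.2 ± 10.3 percentage points (SD, n = 4 mice) had the same sign in 4 of 4 mice, and its two-sided exact sign-flip p of 0.125 (adjusted 0.292 over 7 comparisons) was the smallest that 4 mice allow. The V gene also sets the first bases of the CDR3, so that the V assignment and the distance are not independent measures.

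The lesser sequence of a pair was usually rare. As a share of the leading count, its median was 8.51% in pairs 1 apart, 15.4% in pairs 2 apart and 15.8% in pairs 3 or more apart. A lesser sequence of 2 UMIs, the lowest the rule admits, was found in 69 of 110, 11 of 29 and 8 of 28 pairs. In log10 units, the median ratio of pairs 1 apart and of pairs 3 or more apart was -1.04 and -1.03 in WT replicate 3, -1.11 and -0.564 in WT replicate 4, -1.18 and -0.291 in KO replicate 2 and -0.844 and -1.31 in KO replicate 3. Only KO replicate 3, with 2 distant pairs, had the lower ratio in these. The mean difference was -0.244 ± 0.598 (SD, n = 4), and the counts were not tested because the rule sets their lower limit. The base quality of the lesser sequence, taken from its best entry over both organs, was 40 in 109 of 110 pairs 1 apart. It was 40 in all 57 others as well, and the lowest was 32.

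**Figure D2:**
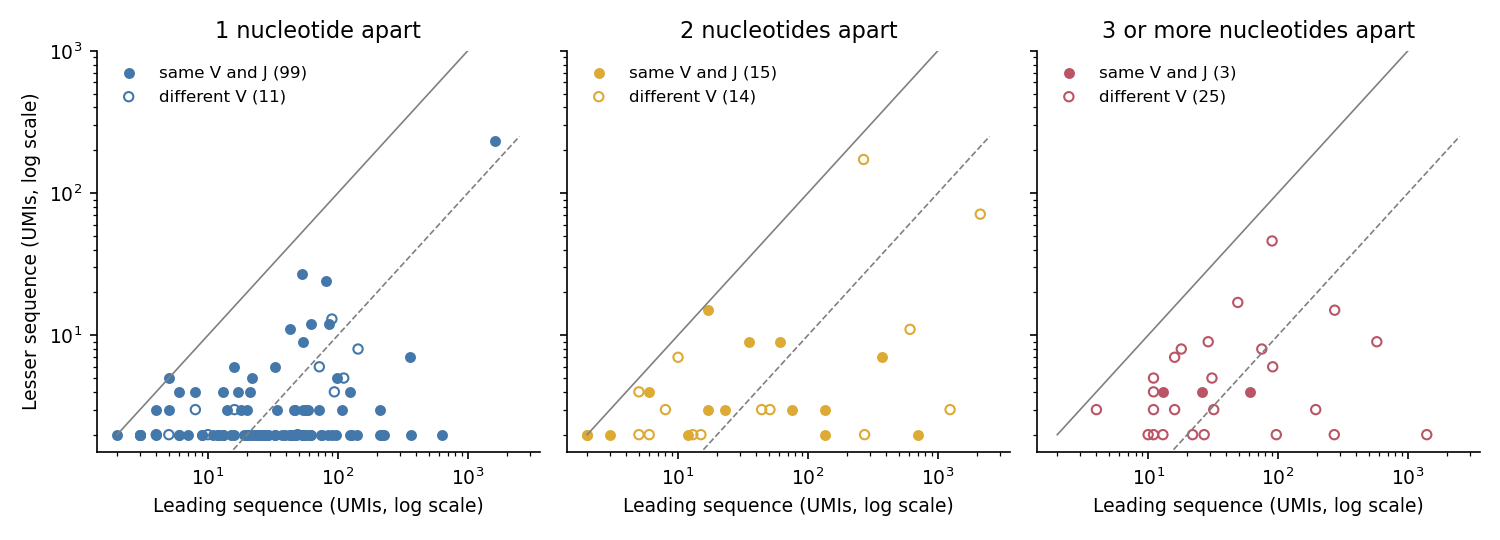
UMIs of the lesser against the leading sequence (both log scale) for the 167 pairs, in 3 panels by their distance, with filled points for pairs of the same V and J segment and open points for pairs with different V segments. Points of equal counts lie on top of each other, the solid line marks equal counts and the dashed line a lesser count 10 times below the leading one. Filled points make up 99 of 110 pairs in the left panel and 3 of 28 in the right one.

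The differing bases of pairs 1 apart lay along the whole CDR3. Of the 110 bases, 28 fell in the part aligned to the V segment, 42 between V and J and 40 in the J part. The third codon position held 107 of them and the first held 3, all in codons of leucine or arginine, which have synonyms at that position. Transitions (C with T, or A with G) made up 66 (60%). In pairs 3 or more apart, 69 of 119 differing bases (58.0%) fell in the V part, 34 between the segments and 16 in the J part, and 47 (39.5%) were transitions. The last 9 bases, which are encoded in the J segment, held 21 of 110 differing bases in pairs 1 apart and 0 of 58 and 0 of 119 in the others. Glycine codons held 31 of the 110 bases, serine codons 15 and alanine codons 11, and 21 of the 110 lay in a run of at least 5 G. Some of those in G runs were in the CDR3s of KO replicate 3 ending in GGGREQYF, which are described below. The share of these codons and runs in the CDR3s as a whole is not given, so the counts show no preference.

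Each sequence was compared with the germline copies of its assigned V and J segments in GRCm38.p6. It was read from the first CDR3 base forward and from the last base backward, up to the first mismatch. D segments were not compared. Pairs with TRBV26 or TRBV29, 13 in all, were left out because the start of the CDR3 was not found in the annotated gene. In the 104 pairs 1 apart that remained, the differing base lay within the germline-matching stretch of the leading sequence only in 52 cases (50%) and of the lesser sequence only in 6. It lay in neither stretch in 43 cases, which may include bases encoded by a D segment. In 3 cases it lay in both, always under different V segments, and the same gene cannot match different bases at 1 place. The leading sequence carried the germline base more often in each of the 6 mice, with 1 against 0, 17 against 4 and 13 against 1 cases in WT replicates 1, 3 and 4 and 1 against 0, 12 against 1 and 8 against 0 in KO replicates 1, 2 and 3. In pairs 3 or more apart the corresponding numbers were 22 and 14 bases, and 46 bases matched the germline in both. These are numbers of bases and were not tested.

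The printed sequences show both kinds. The leading sequence of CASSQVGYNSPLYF matched TRBJ1-6 (chr6:41535554-41535606) over its last 22 bases, and the second sequence over its last 3. In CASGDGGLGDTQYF the leading sequence matched TRBV13-2 (chr6:41121396-41121832) over 16 bases and TRBJ2-5 (chr6:41543453-41543501) over 15, while the second sequence matched TRBJ2-5 over 9 and the last one matched TRBV13-2 over 8. In the TRBV1 and TRBJ2-5 CDR3 both sequences matched TRBV1 over 16 bases and TRBJ2-5 over 18. The differing base was among the 11 bases between them. Both sequences were assigned TRBD2, whose germline bases were not compared. In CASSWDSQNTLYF each sequence matched its own V gene, TRBV16 or TRBV14 (chr6:41135167-41135616), over 13 bases and TRBJ2-4 (chr6:41543362-41543410) over 21. Only 5 bases were left in the middle, and they were the same in both. In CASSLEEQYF the sequences matched TRBV12-2 (chr6:41118864-41119364) over 15 bases and TRBV3 (chr6:41048394-41048824) over 16, with 3 and 2 bases left before TRBJ2-7.

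**Figure D3:**
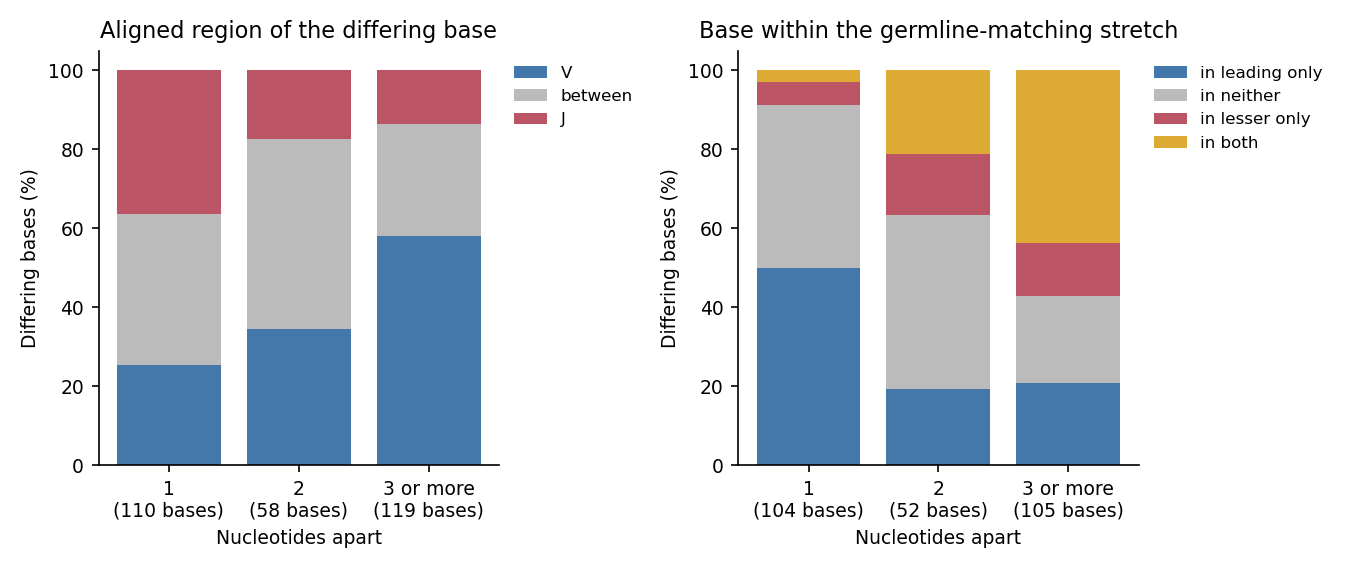
Share of differing bases (%) in pairs 1, 2 and 3 or more nucleotides apart, by the aligned region they fall in (left) and, without pairs of TRBV26 or TRBV29, by whether they lie in the germline-matching stretch of the leading sequence, the lesser, both or neither (right). Germline here means the V and J segments, and D segments were not compared. Of the 104 bases of pairs 1 apart on the right, 52 match the germline in the leading sequence only and 6 in the lesser only.

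The organs of a mouse often shared the leading sequence and less often the lesser one, which also had fewer UMIs. The leading sequence was in both organs in 117 of 167 pairs, in spleen only in 46 and in mLN only in 4. The lesser sequence was in both organs in 27 pairs, in spleen only in 112 and in mLN only in 28. In 11 of 167 pairs the lesser sequence was found in an organ without the leading one. All 20 members of KO replicate 3 were in spleen only, and its mLN library had 2488 UMIs. To set members against CDR3s coded by 1 sequence, the latter were weighted to the leading counts of the members in bins. The bins were 2 to 9, 10 to 99, and 100 or more UMIs, and counts within a bin were not matched. The share with the leading sequence in both organs was then 100%, 75.9% and 79.3% in WT replicates 1, 3 and 4 against 54.2%, 71.9% and 74.9%. In KO replicates 1, 2 and 3 it was 50%, 95.8% and 0% against 65.4%, 88.4% and 7.48%. The difference was 6.48 ± 21.1 percentage points (SD, n = 6 mice; exact sign-flip p = 0.594, adjusted 0.656). It was higher for members in 4 mice and lower in 2, and became -1.38 without WT replicate 1 and its single member.

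The split between organs was compared for pairs with at least 10 UMIs of both sequences, which were few. Each organ was scaled to its library total and the difference in the mLN share between the sequences of a pair was taken without its sign. The medians were 28.9 percentage points for 2 pairs 1 apart and 27.8 for 1 pair 3 or more apart in WT replicate 3, 27.3 and 25.4 for 1 pair each in WT replicate 4, and 50.7 for 3 pairs and 21.4 for 1 pair in KO replicate 2. The exact sign-flip p of 0.25 was the smallest possible with 3 mice (adjusted 0.438).

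Members were somewhat shorter, with fewer bases between V and J. The V-J gap counts the bases between the end of the V and the start of the J alignment in the leading sequence. It is below 0 where the alignments overlap. Its mean in members was 4, 7.52 and 7.52 nucleotides in WT replicates 1, 3 and 4 and 7.75, 7.54 and 10.2 in KO replicates 1, 2 and 3. In CDR3s coded by 1 sequence it was 9.29, 9.30, 9.15, 9.25, 9.35 and 9.21, almost the same in each mouse. Members had the shorter gap in 5 of 6 mice, and KO replicate 3 had the longer one. The difference of -1.83 ± 2.003 nucleotides (SD, n = 6) gave an exact sign-flip p of 0.0625 (adjusted 0.219), with 0.0312 the smallest possible. It stood at -1.21 after weighting the CDR3s coded by 1 sequence to the lengths of the members, at -1.06 in the 4 mice with at least 10 members and at -1.14 without WT replicate 1. Convergent CDR3s seen in 2 or more mice had mean gaps of 8, 5.5 and 6.82 nucleotides in WT replicates 1, 3 and 4 and 9.8, 9.4 and 7.81 in KO replicates 1, 2 and 3. These were below those of members in 3 mice and above in the other 3.

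CDR3 length gave a similar picture. Members were 14.0, 13.3 and 13.5 residues long on average in WT replicates 1, 3 and 4 and 13.2, 13.5 and 13.4 in KO replicates 1, 2 and 3, while the means of the others lay between 13.8 and 13.9. Members were shorter in 5 of 6 mice, the exception being the 1 member of WT replicate 1. The difference was -0.363 ± 0.287 residues (SD, n = 6; exact sign-flip p = 0.0625, adjusted 0.219). It was -0.758 at 3 UMIs per sequence and -0.176 when the same V and J were also required. Convergent CDR3s seen in 2 or more mice were 13.3 to 13.7 residues long on average. Codon degeneracy, the mean log2 number of synonymous codons per residue, was 1.67 in members and 1.66 in the others, a difference of 0.0123 ± 0.0556 (SD, n = 6; exact sign-flip p = 0.656). Its spread over mice exceeded the difference.

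**Figure D4:**
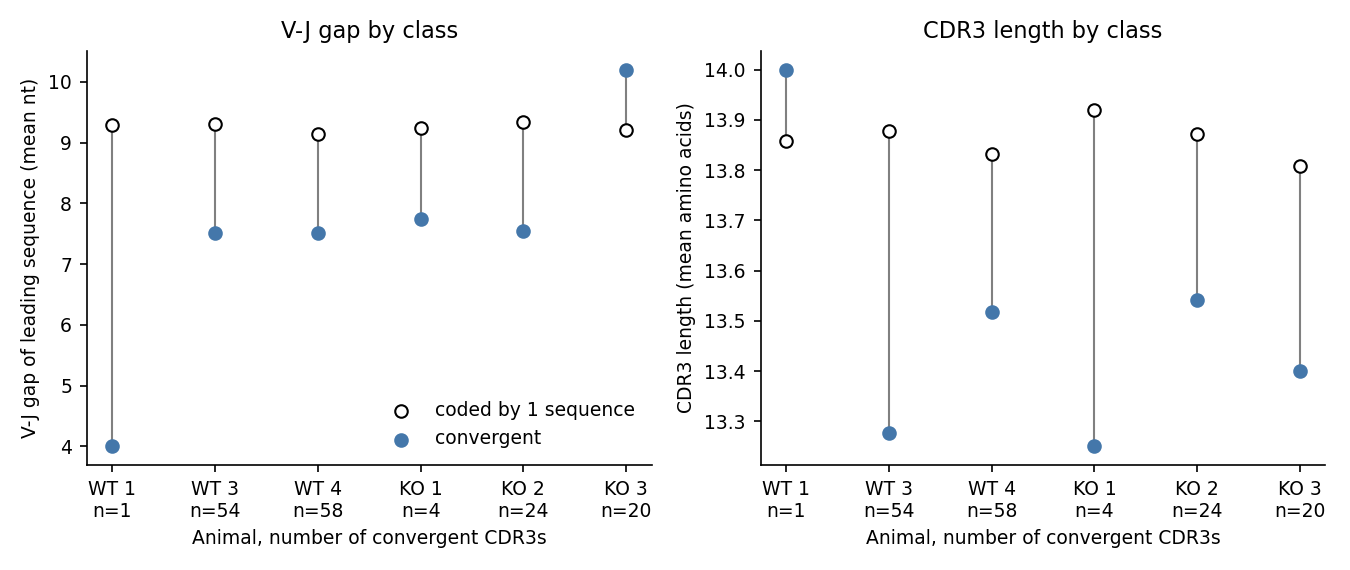
Mean V-J gap of the leading sequence (nucleotides, left) and mean CDR3 length (amino acids, right) per mouse, for members (filled) and for private CDR3s coded by 1 sequence (open), joined by a line. The number of members stands under each mouse, and the axes do not start at 0. Members lie lower in 5 of 6 mice in each panel, with KO replicate 3 the exception for the gap and WT replicate 1 for the length.

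Members used every V segment tested except TRBV20, with TRBV13-2 leading (18 of 161), followed by TRBV5 (16), TRBV13-1 (15), TRBV3 (15), TRBV31 (13), TRBV1 (12) and TRBV16 (11). Numbers of CDR3s per segment were compared with edgeR's quasi-likelihood test, with the mouse as a block. Of 21 V segments tested, 1 (4.76%) passed an adjusted p of 0.05, and 3 had an unadjusted p below it. TRBV20 (chr6:41188273-41188977) was used by 0 of 161 members, which allows a share of up to 1.86% (3 counts of 161), and by 510 of the 12530 others (4.07%), at least 2.18-fold less (edgeR adjusted p = 0.00947). Of the other CDR3s, TRBV20 took 3.19%, 4.15% and 3.82% in WT replicates 1, 3 and 4 and 4.70%, 3.68% and 4.87% in KO replicates 1, 2 and 3, against 0 in the members of each. WT replicate 1 and KO replicates 1, 2 and 3 had only 1, 4, 24 and 20 members, so 0 in each of these mice says little by itself. The call was lost with DESeq2 (adjusted p = 0.397), at 3 UMIs per sequence (0.202), without sequences next to one 10 times larger (0.0842), without lesser sequences 1 nucleotide away (0.190) and without WT replicate 3 (0.0664) or WT replicate 4 (0.0646). TRBV12-1 (7 of 161 against 1.52%, edgeR adjusted p = 0.192) and TRBV12-2 (5 of 161 against 1.02%, edgeR adjusted p = 0.256) had the next smallest p and did not pass.

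Of 12 J segments tested, 1 (8.33%) passed in edgeR, and 2 had an unadjusted p below 0.05. TRBJ2-2 (chr6:41542957-41543007) was used by 2 of 161 members (1.24%) and by 737 of the others (5.88%), a log2 fold change of -2.22 (SE 0.70, edgeR adjusted p = 0.0420). Its members were 1 in WT replicate 3 and 1 in KO replicate 2, while the other CDR3s used it at 5.21% to 7.15% in each mouse. The call was lost with DESeq2 (adjusted p = 0.229), at 3 UMIs per sequence (0.322), under the same filters on neighbouring (0.417) and lesser sequences (0.145), and without WT replicate 1 (0.0704), WT replicate 3 (0.1), WT replicate 4 (0.398), KO replicate 1 (0.0538) or KO replicate 3 (0.118). TRBJ2-7, the most used J segment, had 40 members (24.8%) against 17.0% of the others (edgeR adjusted p = 0.312), and TRBJ1-2 had 3 members (1.86%) against 5.42% (edgeR adjusted p = 0.139).

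**Figure D5:**
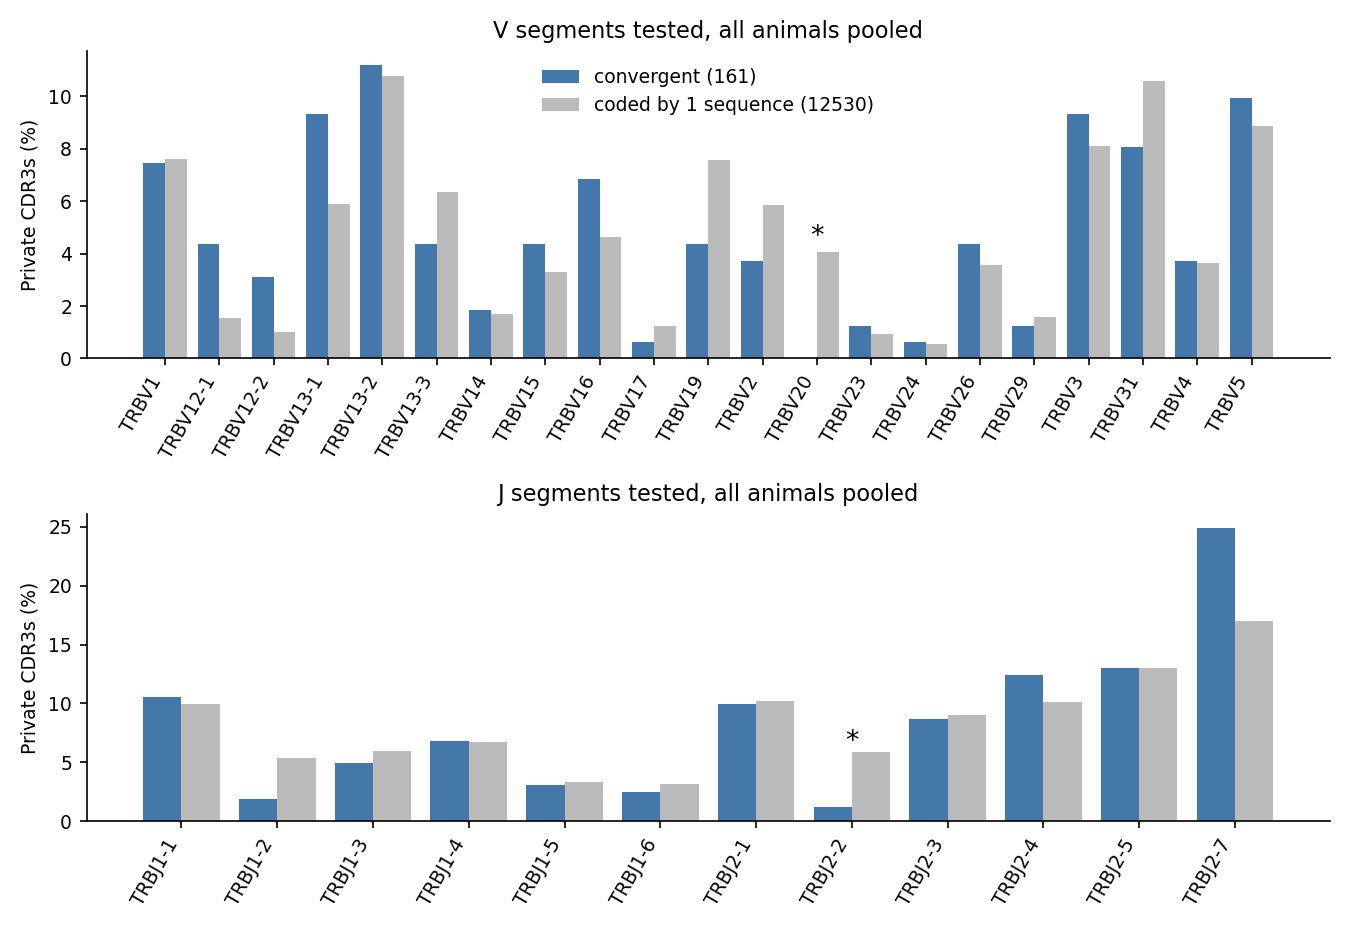
Share of private CDR3s (%) under each tested V segment (top) and J segment (bottom), for the 161 members and the 12530 CDR3s coded by 1 sequence, all mice pooled. Asterisks mark the segments past an edgeR adjusted p of 0.05, TRBV20 with 0 members and TRBJ2-2 with 1.24% against 5.88%.

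To ask whether the genotype of the transferred cells changed convergence, the mice were compared at a common depth of 23258 UMIs. Private was judged anew in each draw among the thinned mice, so CDR3s found in other mice at full depth could count here. At this depth a mouse held 0.78 to 3.24 such convergent CDR3s on average over 50 draws. WT replicate 1, which was not thinned, held 2.54 on average against 1 member in the full tables. The convergent share of private CDR3s was 0.329%, 0.258% and 0.331% in WT replicates 1, 3 and 4 and 0.111%, 0.406% and 0.286% in KO replicates 1, 2 and 3. The values overlapped, with means of 0.306 ± 0.0414 in WT and 0.267 ± 0.148 in KO (SD, n = 3 each; two-sided exact permutation p = 0.8). The difference was -0.218 between the single mice with few unusual J ends and 0.111 among those with many. With 3 mice against 3, no p below 0.1 can be reached.

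In the full tables, pairs at least 3 apart were held by 0%, 20.4% and 19.0% of members in WT replicates 1, 3 and 4 and by 0%, 12.5% and 10% in KO replicates 1, 2 and 3 (exact permutation p = 0.6, n = 3 each). Members took 0.0387%, 1.38% and 0.853% of all UMIs in the WT mice and 0.0530%, 1.77% and 0.382% in the KO mice. Both measures overlapped between genotypes. The mean V-J gap of members was the 1 measure without overlap, with 6.35 ± 2.03 nucleotides in WT and 8.50 ± 1.48 in KO (SD, n = 3 each; exact permutation p = 0.1, the smallest possible, adjusted 0.4 over 4 comparisons). KO replicate 2 exceeded the highest WT mouse by only a few hundredths of a nucleotide. KO minus WT was 3.75 between the mice with few unusual J ends, with 1 and 4 members, and 0.0238 among those with many. The difference was 0.979 without WT replicate 1, 1.30 without KO replicate 3 and 0.560 in the spleen libraries alone, where 5 mice had members (exact permutation p = 1). At common depth it was 4.33, where WT mice lay between 2.28 and 7.56 and KO mice between 5.94 and 13.2, so that the genotypes overlapped.

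The longer gap in KO replicate 3 went with a group of related CDR3s, which was picked out after its values were seen. In this mouse 12 CDR3s ending in GGGREQYF, of the same length and with TRBV13-2 and TRBJ2-7, held 30 nucleotide sequences and 360 UMIs. The largest CDR3, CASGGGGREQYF, had 216 UMIs in 3 sequences and was seen in 2 mice, so it was not private. Of the 12, 5 were members, with 53 and 27 UMIs for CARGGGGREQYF, 16 and 6 for WASGGGGREQYF, 6 and 4 for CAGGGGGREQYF, 5 and 5 for WARGGGGREQYF and 2 and 2 for WAGGGGGREQYF. The members starting with tryptophan in place of the usual cysteine were the 3 such members in the series, while 50 of the 12530 others did not start with cysteine. The mean gap of the family's members was 12.2 nucleotides and that of the other 15 members of KO replicate 3 was 9.53, against 9.21 for the CDR3s coded by 1 sequence.

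Sequences close to a larger one were counted in both classes. The leading sequence lay 1 nucleotide from a sequence of the same mouse with at least 10 times its count in 1 of 161 members (0.621%) and in 303 of the 12530 others (2.42%). These shares were not matched for the count of the leading sequence, whose median was higher in members in every mouse. Dropping every sequence 1 nucleotide from one with at least 10 times its count, whatever its amino acids, left 102 members. Dropping every lesser sequence 1 nucleotide from a better counted one of the same CDR3 left 54. These 54 were 0, 19 and 24 in WT replicates 1, 3 and 4 and 1, 7 and 3 in KO replicates 1, 2 and 3. Their V-J gap was again the shorter one, with a difference from the CDR3s coded by 1 sequence of -2.28 nucleotides in the 5 mice that had any (exact sign-flip p = 0.0625, the smallest possible).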

How the data were processed

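Per the study's methods, TCR beta cDNA was made with constant region primers and UMI adapters, reads were grouped by UMI with MIGEC, and segments were aligned with MiXCR at default settings. Tool versions and the V and J reference are not given in the sources used here. The clone count deposited for each clonotype is whole and was read as its UMIs. The values given here were computed from that count and not from the deposited clone fraction. The deposited quality score is the lowest base quality in the CDR3. The authors downsampled before their own tests, and the deposited tables are not downsampled. Errors left by UMI grouping, or sequences merged by clonotype assembly, carry over into every number of coding sequences.

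Counts of a nucleotide CDR3 were summed over both organs of a mouse. The top V and J hit and the alignment ends of its most counted entry were used. Library totals ran from 2488 to 493287 UMIs, so that the lowest detectable share (3 counts) was 0.000608% to 0.121%. Members and lists were chosen with earlier results of these data known. Exact sign-flip tests over mice compared the classes (7 comparisons) and exact permutation tests the genotypes (4 comparisons), with Benjamini-Hochberg adjustment in each family. The count ratio of pairs and the share of UMIs in members were among these comparisons. Their p-values are not given because the rule used the counts. Segments with at least 10 CDR3s in at least 3 of 12 columns were tested on numbers of CDR3s with edgeR 4.0.16 in R 4.3.3, with DESeq2 1.42.0 as an alternative. Other steps used Python 3.11.15, numpy 2.4.6 and scipy 1.17.1. Scripts were tested on simulated data.

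In each mouse the named CDR3s were the one with the most sequences, the one with the best counted second sequence, and the latter among those with leading sequences at least 3 nucleotides apart. Named segments passed an adjusted p of 0.05, and others were named after their values were seen. Alternatives were other count limits, definitions of private and convergent, spleen only, leaving out each mouse or the smallest library, and the replicate block. Alternatives chosen after seeing the data were dropping sequences next to one 10 times larger or lesser sequences 1 nucleotide away, CDR3s from C to F only, mice with at least 10 members, and weighting by length or count. Replicate numbers 1 and 3 occur in both genotypes. Deviations in V segment use correlated at 0.164 on average (-0.00293 to 0.316, 4 pairs of libraries) between mice of the same number, against 0.724 (0.390 to 0.843) between organs of a mouse, so the numbers were not taken as pairs.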

Additional observations from a re-analysis of the deposited data

Results flagged for a closer look

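The share of leading sequences found in both organs differed between members and CDR3s coded by 1 sequence by 45.8 percentage points in WT replicate 1, which stood far above the other 5 mice (-15.4 to 7.48). The gap to the nearest mouse was 0.626 of the whole range, just over Dixon's limit for 6 values, which chance alone passes in about 1 in 20 groups. WT replicate 1 had a single member, whose leading sequence of 7 UMIs was in both organs.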

How the results depend on the processing

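The shorter V-J gap and shorter CDR3s of members, the higher gap of members in KO and the organ split did not change direction or cross the threshold under any alternative run, with an adjusted p of 0.053 or above for the first 2. The excess of same-segment pairs at 1 nucleotide did so too, except that it is 0 by construction when V and J are part of the definition. KO minus WT in the share of UMIs turned to 0.0965 at 3 and 0.105 at 10 UMIs per sequence, 0.0362 without sequences near one 100 times larger, 0.172 ignoring single UMIs in other mice, 0.0620 in spleen, 0.0333 at common depth, 0.00453 without neighbours of sequences 10 times larger and 0.109 without lesser sequences 1 away, and ran from -0.540 to 0.318 when each mouse was left out. KO minus WT in the convergent share turned to 0.0127 in spleen and 0.000392 without such neighbours, and ran from -0.108 to 0.0395 when each mouse was left out. That in distant pairs turned to 5.31 ignoring single UMIs and to 15.2 at common depth. Codon degeneracy turned to -0.00519 at 10 UMIs and -0.0180 without lesser sequences 1 away (-0.000986 to 0.0291 when each mouse was left out), the both-organ share to -0.747 and -0.478 (-1.38 to 10.9), and the count ratio to 0.0411 at 3 UMIs and 0.133 without such neighbours. The cause was not tested. V segments called fell from 1 to 0 with DESeq2, at 3 UMIs and under both neighbour filters, and J segments likewise, with 2 called without sequences near one 100 times larger. Leaving out each mouse gave 0 to 1 for both.

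With the replicate number as a replicate block, over WT and KO replicates 1 and 3, KO minus WT was -0.0952 in the convergent share, -5.19 in distant pairs, 3.22 nucleotides in the gap and -0.492 in the UMI share. With 2 pairs no test can pass the threshold. Without the mouse as a block, no class or segment call changed. Second sequences of 2 or 3 UMIs, and mice with 1 and 4 members, limit what these counts can show.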
